A study of Mus musculus with 18 samples.

Results

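Pax5, Ebf1, Spib, Pou2af1, Pou2f2 and Bach2 are transcription regulators of the B-cell lineage, and their RNA was followed in mouse thymus cells after an antibody against DLL4. Every array probe whose gene name is one of these 6 was taken, which gave 11 probes of 6 genes out of 43426 probes of 25589 genes. The study measured RNA from 18 samples, 1 array each. The mice were C57BL/6 and had received anti-DLL4, or an isotype control monoclonal antibody as the comparison, 2 weeks before the thymus was taken. There were 3 anti-DLL4 and 4 isotype arrays of total thymocytes. DN cells, which had been sorted for lack of CD4 and CD8, had 3 arrays of either antibody. DN1 cells, their CD44+ CD25- fraction, had 3 anti-DLL4 and 2 isotype arrays. A count in the design text gives 3 isotype thymocyte samples where the labels give 4, and all 4 were used. That text names 4 animals per antibody and no source ties an array to an animal, so the p-values measure only the spread between these samples. No sort step for B cells or against them is named, and age and sex of the mice are not given in the sources used here.

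DLL4 is a ligand on thymic stroma that activates the Notch1 receptor of incoming progenitors and directs them to the T lineage. When that signal is missing, progenitors in the thymus can develop into B cells. In early B-cell development the E proteins and Ebf1 switch on B-lineage genes, Pax5 commits the cell to the lineage by activating B-cell genes and silencing others, Spib acts with the related factor PU.1 in B-cell receptor signalling, Pou2f2 (Oct2) binds the octamer element of immunoglobulin and other promoters together with its coactivator Pou2af1 (OBF-1), and Bach2 is a repressor that holds back plasma cell differentiation. Spib and Pou2f2 are also used by plasmacytoid dendritic cells, Spib by some thymic epithelial cells, and Bach2 by T cells.

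The sequences of the probes are shown first because the probes of 1 gene did not always give the same picture. A probe is a 60-base oligonucleotide, and its processed intensity was placed on the log2 scale relative to the 75th percentile of its own array, which is called the level below. A level of 0 is thus the brightness of the array's 75th percentile, and levels are compared between arrays. Between probes they serve only to pick the brightest one of a gene. Positions are those of the mm8 build in the files. Both Pax5 probes lie on the minus strand of chromosome 4, with starts 12.4 kb apart. A_51_P122855 maps to chr4:44558582-44591136, a span of 32555 bases, so it crosses at least 1 splice junction, and A_52_P429826 maps as 1 block to chr4:44546164-44546223. The Ebf1 probes lie 356 kb apart on the plus strand of chromosome 11, A_51_P188054 at chr11:44848286-44848345 and A_52_P531838 at chr11:44492539-44492598. Full sequence is given for the junction-spanning probe and the first 30 bases for the others.
Pax5 A_52_P429826: atgtaattacagcagtgccaatttgccaaa
Pax5 A_51_P122855: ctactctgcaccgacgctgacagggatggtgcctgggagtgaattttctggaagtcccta
Ebf1 A_51_P188054: caataactgcagatttttaaacaaaatcac
Ebf1 A_52_P531838: acaataagctaatagcagtctagattccat

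The other 7 probes were 2 of Spib, 225 bases apart on chromosome 7, 1 of Pou2af1 on chromosome 9, 2 of Pou2f2 on chromosome 7 and 2 of Bach2, 125 kb apart on chromosome 4. The Pou2f2 probes are not independent, because they share 40 bases, shown in capitals, and both cross the same splice junction.
Pou2f2 A_51_P166722: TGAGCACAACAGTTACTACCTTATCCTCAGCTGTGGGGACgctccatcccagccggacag
Pou2f2 A_51_P166728: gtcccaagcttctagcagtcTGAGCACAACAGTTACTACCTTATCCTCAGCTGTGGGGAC
Of the 11 probes, 10 were well above background, by the scanner software's own flag, on at least 2 of the 18 arrays. The Bach2 probe A_52_P1140450, with 12 G or C bases in 60, stayed at background on all 18 arrays and was never tested. No probe of these genes was saturated. For each gene the probe with the highest mean level over the 18 arrays is described as its brightest.

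Array strength and the RNA of cell type markers differed between the groups, and the values below are to be read beside them. The 75th percentile of processed signal ran from 260.2 to 4295.4 over the 18 arrays. In DN cells it was 741.3 to 1076.8 with anti-DLL4 and 260.2 to 675.5 with isotype, without overlap, and isotype DN replicates 1 and 2 were the dimmest arrays of the series. The arrays lay on 6 slides. B-cell markers moved with the treatment: the mean level of 8 genes (Cd79a, Cd79b, Ms4a1, Cd22 and others) was 1.38 to 2.82 on the anti-DLL4 and -1.08 to -0.33 on the isotype thymocyte arrays, 3.83 to 4.54 against -0.01 to 0.63 in DN cells, and 4.00 to 4.24 against 2.86 to 3.91 in DN1 cells. At least 7 of these 8 markers were well above background on every array, and 7 of the 8, all but Ms4a1, are also among the target genes counted further on. The mean of 10 T-lineage markers (Cd3d, Cd3e, Lck, Tcf7, Bcl11b and others) was 4.10 to 4.54 against 4.86 to 5.43 in thymocytes, 1.92 to 3.76 against 3.91 to 4.81 in DN cells, and 0.91 to 2.47 against 3.60 to 4.12 in DN1 cells. Cd8b1, a marker of the cells that the DN sort removes, was well above background on all DN arrays, at 3.64 to 4.09 with anti-DLL4 and 6.82 to 7.14 with isotype, against 7.0 to 9.25 and 7.65 to 9.95 in thymocytes. In RNA of bulk samples, more cells of a type and more RNA per cell cannot be told apart.

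After anti-DLL4, RNA of Pax5, Ebf1 and Spib was higher in both thymocytes and DN cells, and that of Pou2af1 in DN cells. In thymocytes 4 of the 9 tested probes passed the threshold, all higher, from 3 genes: Pax5, Ebf1 and Spib. In DN cells 5 of 9 passed, all higher, from 4 genes: Pax5, Ebf1, Spib and Pou2af1. In DN1 cells 0 of 10 passed, with 3 at an unadjusted p under 0.05, as were 5.22% of all tested probes. The threshold was a Benjamini-Hochberg adjusted p under 0.05 over all tested probes in limma. Of all tested probes, 1.16% passed in thymocytes, 3.72% in DN cells and 0.109% in DN1 cells, in either direction. The median log2 difference over all tested probes, which was not 0, was taken off each printed difference. The p-values and calls belong to the differences before that step. With the median taken off, the tested probes of the 6 genes had a median difference of 3.31 in thymocytes, 4.37 in DN cells and 1.12 in DN1 cells. The median of all tested probes is then 0 by construction.

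**Figure D1:**
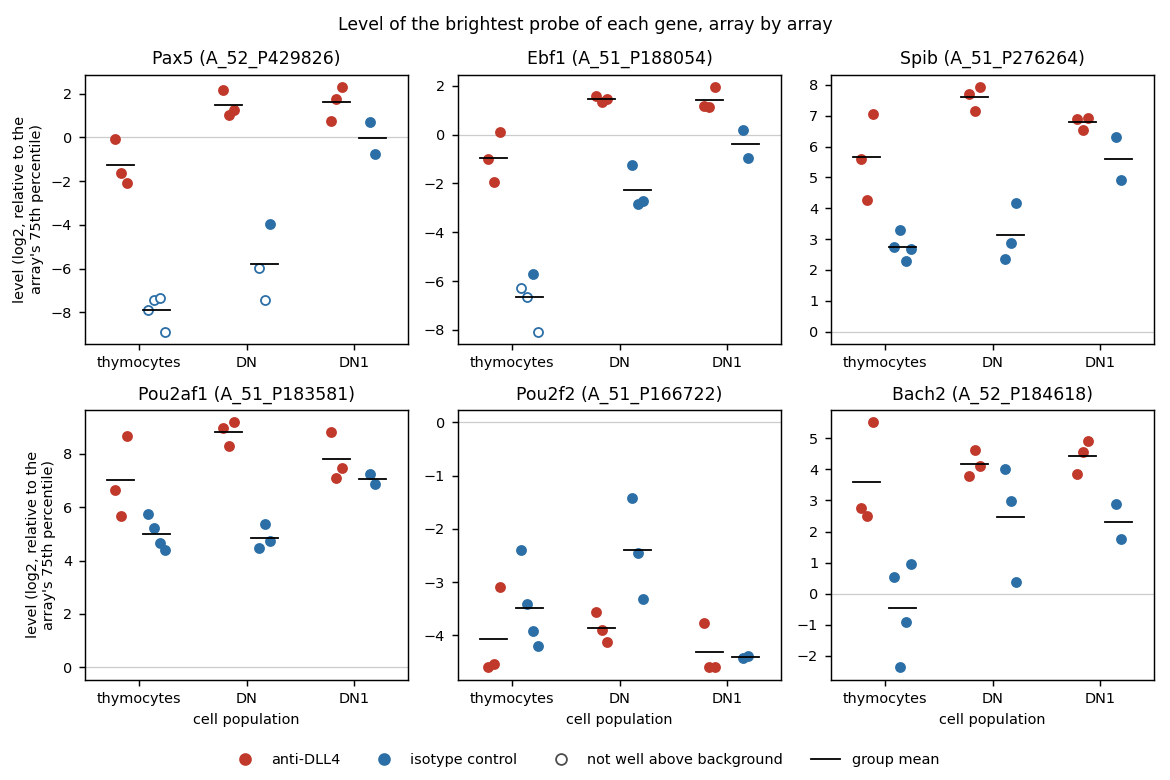
Level of the brightest probe of each gene on every array. Each panel is 1 gene, the horizontal axis gives the 3 cell populations with anti-DLL4 (red) left of isotype (blue), the vertical axis is the log2 level relative to the array's 75th percentile, black lines are group means and open circles mark spots not well above background. Pax5, Ebf1 and Spib are higher on every anti-DLL4 array than on every isotype array in each population, while Pou2f2 overlaps in thymocytes. In DN1 cells none of these differences passed, and the share of all probes that separate likewise was not counted.

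Pax5, the commitment factor, was called in thymocytes and in DN cells by 1 of its 2 probes. In thymocytes its brightest probe, A_52_P429826, had levels of -0.07, -1.64 and -2.06 on the anti-DLL4 arrays, and -7.87, -7.42, -7.33 and -8.88 on the isotype arrays. Every treated array was well above background and no isotype array was, so the groups did not overlap and the isotype level is not exact. The fitted difference of this probe, 7.04 ± 0.78 log2 units (SE, limma adjusted p = 0.00108), therefore has no exact size. With the isotype arrays set at a floor defined below, its ratio was 48.5-fold, which is not a firm minimum. With normexp background correction the fitted difference was 3.01 (adjusted p = 0.0185), smaller than that ratio. In DN cells the levels were 2.16, 1.05 and 1.27 with anti-DLL4 and -5.96, -7.45 and -3.94 with isotype. The groups were far apart, and 1 of the 3 isotype arrays, replicate 3, measured the probe above background. The fitted DN difference of 7.92 ± 0.83 (adjusted p = 0.000222) therefore has no exact size. It was 4.27 with normexp (adjusted p = 0.0217) and 5.76 without the dim isotype DN replicates 1 and 2 (adjusted p = 0.0247). In DN1 cells the levels were 0.77, 1.77 and 2.32 with anti-DLL4 and 0.69 and -0.76 with isotype. The treated DN1 arrays were again the higher ones, by a margin smaller than the spread within either group, and the difference of 1.69 did not pass (adjusted p = 1).

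The second Pax5 probe, A_51_P122855, did not follow the first. Its levels were -10.34, -7.38 and -4.46 on anti-DLL4 thymocyte arrays and -7.27, -6.27, -6.74 and -6.82 on isotype thymocyte arrays. The treated arrays lay both above and below the isotype ones, and the difference was -0.19 ± 1.15 (adjusted p = 0.811). In DN cells it was -1.50 ± 1.22 (adjusted p = 0.251) and in DN1 cells 1.03 (adjusted p = 1), with overlap in both. This probe was well above background on 13 of 18 arrays and its processed intensity was at most 135.4 (anti-DLL4 DN1 replicate 3). Its sign in thymocytes changed with the processing (0.07 with quantile normalization and 0.17 with normexp background correction). When the probes of a gene were averaged, Pax5 was still called in thymocytes at 3.42 (adjusted p = 0.0191) and in DN cells at 3.43 (adjusted p = 0.0303).

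Ebf1, which acts upstream of Pax5, was measured best by A_51_P188054. In thymocytes its levels were -1.01, -1.93 and 0.11 with anti-DLL4, and -6.28, -6.65, -5.69 and -8.07 with isotype. All treated arrays were well above background but only isotype replicate 3 was, and the groups did not overlap. The difference was 6.15 ± 0.64 log2 units (adjusted p = 0.000761), and 3.15 with normexp (adjusted p = 0.0067). In DN cells the levels were 1.60, 1.33 and 1.44 with anti-DLL4 against -1.25, -2.83 and -2.73 with isotype. Here every array was well above background, and the treated arrays lay close together and clear of the isotype ones. The DN difference was 4.37 ± 0.69 (adjusted p = 0.00675). It was 4.52 without the dim isotype DN replicates 1 and 2 and no longer passed (adjusted p = 0.0739), and 3.55 with slide as a fixed block (adjusted p = 0.0692). In DN1 cells Ebf1 had levels of 1.19, 1.14 and 1.96 with anti-DLL4 and 0.18 and -0.96 with isotype. The groups did not overlap, and the difference of 1.85 did not pass (adjusted p = 0.815). Averaged with the other Ebf1 probe it turned to -1.56.

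The other Ebf1 probe, A_52_P531838, was dim everywhere except in isotype DN1 cells. There its levels were -2.81 and -3.71, against -8.76, -7.85 and -8.04 in anti-DLL4 DN1 cells. Both isotype DN1 arrays were well above background and 1 of 3 treated ones was, so the order of the groups was opposite to that of A_51_P188054 on the same arrays. The difference was -4.92 ± 1.07 log2 units, with an unadjusted p of 0.000308 and an adjusted p of 0.12 over all tested probes. Within slide 3 and slide 5, each with 1 array of either antibody, it was -4.69 and -4.19. In thymocytes and DN cells the probe was above background on at most 1 array of any group and was not tested. Averaging both probes took Ebf1 below the threshold in thymocytes (3.1, adjusted p = 0.0752) and in DN cells (1.88, adjusted p = 0.342).

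**Figure D2:**
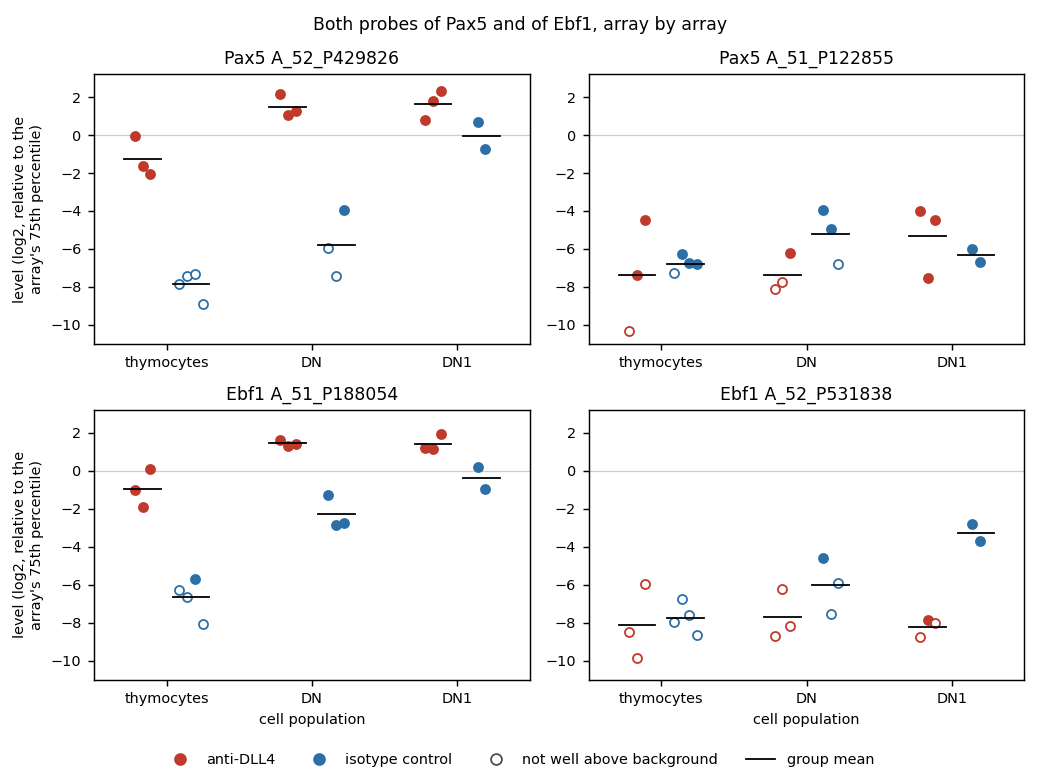
Both probes of Pax5 (top) and Ebf1 (bottom) on the 18 arrays. The horizontal axis gives the populations with anti-DLL4 (red) left of isotype (blue), the vertical axis is the log2 level relative to the array's 75th percentile, lines are group means and open circles are spots not well above background. A_52_P531838 of Ebf1 reaches -2.81 and -3.71 in isotype DN1 cells and lies at -7.85 or lower in anti-DLL4 DN1 cells.

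Spib, an ETS-family factor, rose by both of its probes. A_51_P276264 had levels of 5.60, 4.27 and 7.07 in anti-DLL4 thymocytes, against 2.74, 3.31, 2.29 and 2.68 in isotype thymocytes. The groups did not overlap, and the treated arrays spread more widely than the isotype ones (SD 1.40 and 0.42). The difference was 3.31 ± 0.63 log2 units (adjusted p = 0.0374), and 3.69 ± 0.65 by A_51_P276267 (adjusted p = 0.0241). Both calls were lost without anti-DLL4 thymocyte replicate 1 (adjusted p = 0.101 and 0.0864) or 3 (0.105 and 0.0764), and without isotype thymocyte replicate 1 (0.0774 and 0.0582) or 3 (0.0982 and 0.0679). The call of A_51_P276264 was also lost without isotype thymocyte replicate 2 or 4, anti-DLL4 DN replicate 1 or 3, isotype DN replicate 2 or anti-DLL4 DN1 replicate 3 (adjusted p = 0.0522 to 0.0593), and both were lost with slide as a fixed block (0.0906 and 0.0577). In DN cells A_51_P276264 had levels of 7.70, 7.16 and 7.94 with anti-DLL4 and 2.34, 2.87 and 4.16 with isotype. The lowest treated array stood clear of the highest isotype array, the brightest of the 3. The DN differences were 5.12 ± 0.68 (adjusted p = 0.00195) and, by A_51_P276267, 5.62 ± 0.70 (adjusted p = 0.00105). Without isotype DN replicates 1 and 2 they were 3.77 and 4.11 and did not pass (adjusted p = 0.159 and 0.103). In DN1 cells the levels were 6.91, 6.55 and 6.93 with anti-DLL4 and 6.30 and 4.91 with isotype. Treated DN1 arrays were higher throughout, but the differences of 1.22 and 1.72 for the 2 probes did not pass (adjusted p = 1 and 0.938).

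Pou2af1, the B-cell coactivator of octamer-binding factors, was the gene with a call in DN cells and none in thymocytes. In DN cells its levels were 8.99, 8.29 and 9.18 with anti-DLL4 against 4.49, 5.37 and 4.72 with isotype. The 2 groups were tight and did not overlap, with a difference of 4.61 ± 0.70 log2 units (adjusted p = 0.00539). It was 4.43 without isotype DN replicates 1 and 2 (adjusted p = 0.119) and 3.98 with slide as a fixed block (adjusted p = 0.0723). In thymocytes the levels were 6.66, 5.69 and 8.69 with anti-DLL4 and 5.73, 5.22, 4.67 and 4.39 with isotype. Anti-DLL4 replicate 2 fell just under isotype replicate 1, and the difference of 2.44 ± 0.65 did not pass (adjusted p = 0.156). It passed with quantile normalization, at 2.83 (adjusted p = 0.0136). In DN1 cells the levels overlapped, at 8.81, 7.11 and 7.48 with anti-DLL4 and 7.23 and 6.89 with isotype (difference 0.77, adjusted p = 1). The antibody effect in DN cells exceeded that in thymocytes by 2.32 ± 0.96, which did not pass (adjusted p = 0.599).

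Bach2, the repressor, was high on many arrays of both antibodies. In thymocytes its brightest probe, A_52_P184618, had levels of 2.76, 2.51 and 5.51 with anti-DLL4 against 0.53, -2.37, -0.92 and 0.96 with isotype. All treated arrays were above all isotype arrays, and the difference of 4.47 ± 0.95 log2 units lay just outside the threshold (adjusted p = 0.0529). Over the alternatives its adjusted p ran from 0.0283 to 0.226, and it passed in 7 of 35. The 35 include the differences within single slides, which have no p-value. Among the 7 were the stricter filter on dim probes (4.47, adjusted p = 0.0453) and the fit without isotype thymocyte replicate 4 (5.02, adjusted p = 0.038). In DN cells the levels were 3.80, 4.62 and 4.12 with anti-DLL4 and 4.02, 2.97 and 0.39 with isotype. Here isotype replicate 1 lay inside the treated range and the difference of 2.37 ± 1.02 did not pass (adjusted p = 0.266). In DN1 cells the levels were 3.85, 4.55 and 4.90 against 2.89 and 1.75, without overlap and without a call (2.15, adjusted p = 1).

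Pou2f2 did not follow the other 5. The levels of A_51_P166722 were -4.60, -4.53 and -3.1 in anti-DLL4 thymocytes and -2.40, -3.42, -3.91 and -4.20 in isotype thymocytes. These ranges overlapped, with a difference of -0.17 ± 0.58 log2 units (adjusted p = 0.65). In DN cells the levels were -3.56, -3.89 and -4.13 with anti-DLL4 against -1.42, -2.45 and -3.31 with isotype. Every treated DN array was lower, but the difference of -0.82 ± 0.62 did not pass (adjusted p = 0.14). That p-value tests the difference before the median was taken off, -1.47. The difference passed without isotype DN replicate 3, at -1.22 with the median taken off (adjusted p = 0.0445). In DN1 cells the difference was 0.12 (adjusted p = 1), and by A_51_P166728 the differences were 0.03, -0.53 and 0.13 in thymocytes, DN and DN1 cells, none called, with the DN value turning to 0.58 under quantile normalization. The processed intensity of A_51_P166722 stayed between 42.38 and 177.5 on all 18 arrays, while array strength varied from 260.2 to 4295.4. Its highest level, -1.42, was on the dimmest array of the series and its lowest, -4.60, on the 3 brightest, and the part of array strength in these levels was not tested. Its low brightness gives no measure of how much Pou2f2 RNA was present relative to other genes.

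**Figure D3:**
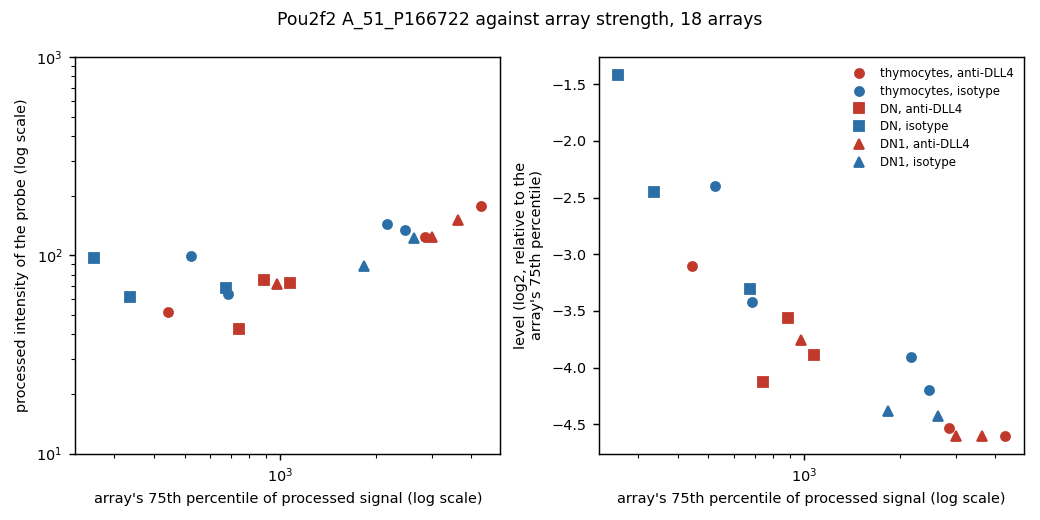
Pou2f2 probe A_51_P166722 against array strength, 1 symbol per array, with anti-DLL4 in red and isotype in blue and 1 symbol shape per population. The horizontal axes give the array's 75th percentile of processed signal (log scale), the left vertical axis the probe's processed intensity (log scale) and the right one its log2 level. Intensity stays between 42.38 and 177.5, and the level is highest (-1.42) where the array is weakest (260.2).

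**Figure D4:**
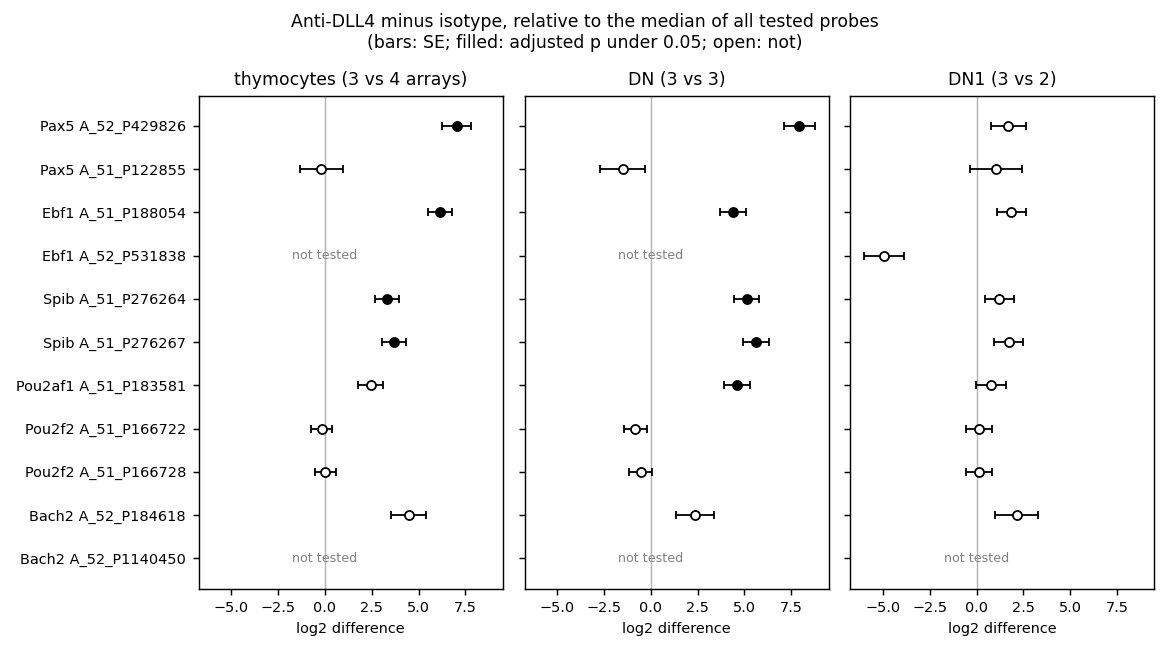
Difference between anti-DLL4 and isotype for all 11 probes in thymocytes, DN and DN1 cells. The horizontal axis is the log2 difference relative to the median of all tested probes, bars are standard errors and filled circles passed an adjusted p of 0.05. The filled circles are 4 in thymocytes and 5 in DN cells, at 3.31 to 7.92, and none is filled in DN1 cells.

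Within single slides that held both antibodies the directions were mostly the same. In thymocytes, on slides 1, 2 and 4, the differences of the brightest probes were 8.96, 6.54 and 4.94 for Pax5, 6.43, 5.48 and 5.47 for Ebf1, and 4.03, 1.72 and 4.44 for Spib. They were 2.10, 1.23 and 3.70 for Pou2af1, 3.39, 5.64 and 6.10 for Bach2, and -1.04, -0.35 and 0.48 for Pou2f2, the one that changed sign. In DN cells, on slide 3, they were 7.94, 3.51, 5.74, 4.73, 1.53 and -1.55 for Pax5, Ebf1, Spib, Pou2af1, Bach2 and Pou2f2, and this slide paired the strongest anti-DLL4 DN array with the weakest isotype one. In DN1 cells, on slides 3 and 5, they were 1.43 and 3.22 for Pax5, 1.31 and 3.05 for Ebf1, and 2.01 and 3.29 for Bach2, with smaller values for Spib (0.59 and 2.15), Pou2af1 (0.23 and 0.73) and Pou2f2 (0.18 and -0.09).

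Whether the antibody effect differed between populations was tested directly. None of the tested probes of the 6 genes passed in any of the 3 differences in limma (1, 3 and 5 at an unadjusted p under 0.05), where 0.0107% (DN minus thymocytes), 0.0894% (DN1 minus thymocytes) and 0.137% (DN1 minus DN) of all tested probes did. The smallest adjusted p was that of Pax5 A_52_P429826 for DN1 minus DN, with a difference of effects of -6.23 ± 1.25 log2 units (adjusted p = 0.0983). Its size is not exact, because isotype levels at background enter it. It was -7.29 and passed without isotype DN replicate 3 (adjusted p = 0.0177). Against thymocytes the test for Pax5 in DN1 cells did not pass (adjusted p = 0.201), and no size is given because Pax5 was at background on all 4 isotype thymocyte arrays. For Ebf1 A_51_P188054, above background on 1 of those 4, it was -4.29 ± 1.00 (adjusted p = 0.225). For Spib A_51_P276264 the effect in DN1 cells minus that in DN cells was -3.90 ± 1.02 (adjusted p = 0.267) and for Pou2af1 -3.83 ± 1.05 (adjusted p = 0.288). At an unadjusted p under 0.05, limma had 3167, 2599 and 4424 probes in the 3 differences, or 8.47%, 6.83% and 11.6% of all tested probes.

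The populations of each antibody were then compared, which gives the order of the levels. In isotype mice, DN cells against thymocytes had 1 called probe of the 6 genes, with 1.13% of all tested probes called. Ebf1 A_51_P188054 averaged -2.27 ± 0.89 in isotype DN cells (SD, n = 3) and -6.67 ± 1.01 in isotype thymocytes (SD, n = 4), and the difference was 4.05 ± 0.64 log2 units (SE, adjusted p = 0.00485), and 1.64 with normexp (adjusted p = 0.0132). Of the 4 isotype thymocyte arrays, 1 had the probe well above background. Without isotype DN replicates 1 and 2 it was 4.03 and did not pass (adjusted p = 0.234). For the other 4 brightest probes that were tested, the differences were 2.56 (Bach2), 0.74 (Pou2f2), 0.01 (Spib) and -0.50 (Pou2af1), none called. Pax5 A_52_P429826 was not tested there, since only 1 of these 7 arrays measured it.

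Isotype DN1 against isotype DN cells also had 1 called probe, with 1.1% of all tested probes called. Pax5 A_52_P429826 averaged -0.03 ± 1.03 in isotype DN1 cells (SD, n = 2) and -5.79 ± 1.76 in isotype DN cells (SD, n = 3), with a fitted difference of 6.41 ± 0.93 log2 units (SE, adjusted p = 0.0068). Only 1 of the 3 isotype DN arrays had the probe well above background, so the size of that difference is not exact. Without isotype DN1 replicate 1 it was 5.66 and did not pass (adjusted p = 0.169), and without the dim isotype DN replicates 1 and 2 it was 4.18 (adjusted p = 0.201). With normexp background correction it was 2.45 (adjusted p = 0.471). Spib was 3.15 and 3.48 higher by its 2 probes, Pou2af1 2.86 and Ebf1 2.54, each with all DN1 arrays above all DN arrays and none called (adjusted p = 0.109 to 0.231). How many of all probes separate likewise was not counted, and 83.9% of all called probes in this comparison were higher. Bach2 was at 0.52 and Pou2f2 at -1.35.

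In anti-DLL4 mice no probe of the 6 genes passed between populations. For DN cells against thymocytes 0 of 9 tested probes of the 6 genes passed, with 0.28% of all tested probes called. At an unadjusted p under 0.05 in limma were 5 of the 9, and 7.42% of all tested probes. The differences of the brightest probes ran from 0.15 (Pou2f2) to 2.68 (Pax5). All anti-DLL4 DN arrays were above all anti-DLL4 thymocyte arrays for Pax5, Ebf1 and Spib, and how many of all probes separate likewise was not counted. For DN1 against DN cells, 0% of all tested probes were called by limma, with 1523 probes at an unadjusted p under 0.05, and none of the 9 tested probes of the 6 genes reached that level either. Their brightest probes ran from -1.02 (Pou2af1) to 0.26 (Bach2).

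The order of group means can be read for each gene. For Pax5 the anti-DLL4 groups of DN1 cells (1.62 ± 0.78) and of DN cells (1.49 ± 0.59, SD, n = 3 each) came first and do not differ beyond their spread. Isotype DN1 cells followed at -0.03 ± 1.03 (n = 2), just below both, and anti-DLL4 thymocytes at -1.26 ± 1.05 (n = 3), whose ranges overlap. Isotype DN cells and isotype thymocytes came last, at -5.79 ± 1.76 and -7.88 ± 0.71, with overlapping ranges. Ebf1 had the same upper pair, at 1.46 ± 0.14 in anti-DLL4 DN and 1.43 ± 0.46 in anti-DLL4 DN1 cells, then isotype DN1 cells (-0.39 ± 0.80) and anti-DLL4 thymocytes (-0.94 ± 1.02), which overlap, then isotype DN cells, which reach into the range of anti-DLL4 thymocytes, and, clear of all others, isotype thymocytes. Spib ran from 7.60 ± 0.40 in anti-DLL4 DN cells over 6.79 ± 0.21 in anti-DLL4 DN1 cells, 5.65 ± 1.40 in anti-DLL4 thymocytes, whose range overlaps both neighbours, and 5.61 ± 0.98 in isotype DN1 cells, to 3.12 ± 0.93 in isotype DN cells and 2.75 ± 0.42 in isotype thymocytes, which overlap as well. Pou2af1 ran from 8.82 ± 0.47 in anti-DLL4 DN cells over 7.80 ± 0.89 in anti-DLL4 DN1, 7.06 ± 0.24 in isotype DN1 cells and 7.02 ± 1.53 in anti-DLL4 thymocytes, to 5.0 ± 0.59 in isotype thymocytes and 4.86 ± 0.46 in isotype DN cells, and every neighbouring pair in that order overlapped. Bach2 ran from 4.43 ± 0.53 in anti-DLL4 DN1 cells, near 4.18 ± 0.41 in anti-DLL4 DN cells, over 3.60 ± 1.66 in anti-DLL4 thymocytes, 2.46 ± 1.87 in isotype DN and 2.32 ± 0.81 in isotype DN1 cells, each overlapping the one before it, to -0.45 ± 1.51 in isotype thymocytes, clear of isotype DN1 cells. Pou2f2 had its highest mean, -2.39 ± 0.95, in isotype DN cells and its lowest, -4.41 ± 0.04, in isotype DN1 cells.

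The genes with the most similar pattern over the 18 arrays were found by the root-mean-square log2 difference from the gene's brightest probe, after taking off each probe's own mean, among 18234 genes, each taken at its closest probe. For Ebf1 the nearest 5 held the B-cell surface protein Ms4a1 (CD20, 1.20), Cd79a (1.22), Cobll1 (1.22) and Casp4 (1.26), while the level of Ebf1 spanned 10.02 units. For Spib they were Cd79b (0.56), Mzb1 (0.65), Pou2af1 (0.68), Apobec1 (0.70) and Wdfy4 (0.71). For Pou2af1 they were Cd79b (0.36), Spib (0.68), Crybg3 (0.69), Wdfy4 (0.71) and Pkig (0.72). The pattern of Pax5 was nearest to Chst3 (0.86), Scd1 (1.13), Hs3st1 (1.25), Cd55 (1.34) and Calca (1.44), with Ebf1 at rank 15, and that of Bach2 to Socs2 (0.68), Ighv8-6 (0.91), Rtl5 (0.94), Zeb2 (0.97) and Ighv1-72 (1.01). Pou2f2 was nearest to Pknox2 (0.20), the olfactory receptors Olfr237 (0.20), Olfr744 (0.23) and Olfr933 (0.23), and Cep164 (0.21). All these distances share the same arrays and array strengths, and they describe likeness only.

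Spib and Pou2af1 lay among each other's 5 nearest genes, and their promoter sequences are shown for that reason. The 250 bases before the gene start were read from RefSeq windows of the GRCm38.p6 build, in which all 6 genes had an entry and Ebf1 had 2. Searched on both strands were the octamer ATGCAAAT, its last 7 letters TGCAAAT, the EBF palindrome, the PU box GAGGAA and the Bach or AP-1 site TGANTCA. The 7-letter part of the octamer, the element to which Pou2f2 binds with Pou2af1, occurred in the windows of Spib and of Pou2af1, 248 and 231 bases before the start, and in 3.56% of all 32851 windows. It is in capitals below, in Spib at chr7:44532072-44532321 on the minus strand and in Pou2af1 at chr9:51213440-51213689 on the plus strand.
Spib: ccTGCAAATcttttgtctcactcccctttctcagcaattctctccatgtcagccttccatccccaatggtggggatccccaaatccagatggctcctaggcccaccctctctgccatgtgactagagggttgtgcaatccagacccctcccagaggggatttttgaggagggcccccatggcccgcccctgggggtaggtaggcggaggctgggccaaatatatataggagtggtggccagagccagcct
Pou2af1: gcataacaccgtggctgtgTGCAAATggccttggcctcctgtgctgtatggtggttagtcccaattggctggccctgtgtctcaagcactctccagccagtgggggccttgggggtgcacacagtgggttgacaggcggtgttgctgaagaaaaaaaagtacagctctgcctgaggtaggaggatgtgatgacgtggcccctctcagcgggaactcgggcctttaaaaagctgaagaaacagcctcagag
The full octamer (1.60% of all windows), the EBF palindrome (0.779%) and the Bach or AP-1 site (6.75%) were in none of the 7 windows. The PU box, in 23.3% of all windows, was in 1 window of Ebf1 and in that of Pou2f2. The windows of Pax5 and Bach2 and the other one of Ebf1 held none of these letters. A match of letters does not show binding.

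Genes known as activated by Pax5 or Ebf1 were counted next to their regulators. Of 14 such genes, 5 rose in thymocytes, 10 in DN cells and 0 in DN1 cells, and none fell, with median differences of 3.90, 5.07 and 0.77 log2 units. The shares of all tested probes that passed were 1.16%, 3.72% and 0.109%, in either direction. Fcrla, an Fc-receptor-like B-cell protein, rose by 4.59 ± 0.52 in thymocytes (adjusted p = 0.00132) and by 6.65 ± 0.55 in DN cells (adjusted p = 0.000114). Cd72 and Cd22, B-cell surface receptors, rose by 3.86 and 4.19 in thymocytes and by 6.33 and 4.65 in DN cells. Blnk, the adaptor of the B-cell receptor, rose in DN cells by 6.12 ± 0.76 (adjusted p = 0.000907). Counts go by the brightest probe of each gene, and for Cd79a, a B-cell receptor chain, the probes disagreed. Its brightest probe, A_52_P651316, did not pass (1.02, 1.77 and 0.69 in thymocytes, DN and DN1 cells). A_51_P463191, above background on 11 of the 18 arrays, rose by 3.75 ± 0.54 in thymocytes (adjusted p = 0.00632) and 6.05 ± 0.58 in DN cells (adjusted p = 0.000186), and was at 1.70 in DN1 cells (adjusted p = 0.718).

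In DN1 cells the largest differences of the list were those of Vpreb1, Vpreb3 and Igll1, genes of B-cell precursors. By the brightest probes these 3 of the 14 were at an unadjusted p under 0.05 in limma, as were 5.22% of all tested probes. Vpreb3 rose by 7.39 ± 0.97 in thymocytes (adjusted p = 0.002) and 7.31 ± 1.04 in DN cells (adjusted p = 0.00231), and in DN1 cells its difference was 5.40 ± 1.16 without a call (adjusted p = 0.12). Vpreb1, part of the surrogate light chain, had levels of 3.70 to 7.17 in anti-DLL4 DN1 cells against -1.15 to -0.19 in isotype DN1 cells. These ranges were far apart, and the difference of 6.51 ± 1.21 lay just outside the threshold (adjusted p = 0.0522). Igll1, the partner of Vpreb1 in it, was at 6.15 ± 1.68 in DN1 cells (adjusted p = 0.309). By their brightest probes the other 11 targets were at -0.98 (Fcer2a) to 1.30 (Cd72) in DN1 cells.

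**Figure D5:**
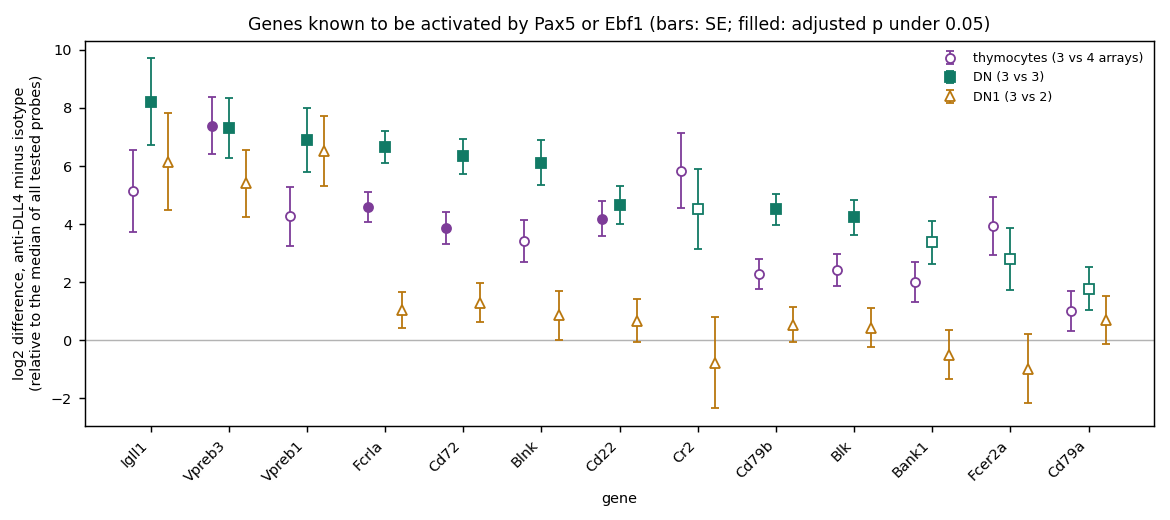
Difference between anti-DLL4 and isotype for 13 of the 14 genes known as activated by Pax5 or Ebf1. The vertical axis is the log2 difference relative to the median of all tested probes, colours and shapes are the 3 populations, bars are standard errors and filled symbols passed an adjusted p of 0.05. Igll1, Vpreb3 and Vpreb1 lie at 5.40 to 6.51 in DN1 cells and the other 10 genes shown there at 1.30 or lower.

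Other B-lineage and lymphoid transcription factors moved in part, in a list that also holds Id2 and Id3, inhibitors of the E proteins. Of 20 such factors tested, 3 rose and none fell in thymocytes, 3 rose and none fell in DN cells, and 0 passed in DN1 cells (2 at an unadjusted p under 0.05), with medians of 0.66, 2.13 and 0.32. Among all tested probes 1.16%, 3.72% and 0.109% passed, and 5.22% were at an unadjusted p under 0.05 in DN1 cells. Irf4, which acts in light chain rearrangement and plasma cells, rose by 3.79 ± 0.56 in thymocytes (adjusted p = 0.00667) and 7.03 ± 0.59 in DN cells (adjusted p = 0.000114). Bcl11a and Mef2c rose in thymocytes by 4.02 ± 0.73 (adjusted p = 0.0256) and 7.78 ± 1.57 (adjusted p = 0.0318). Irf8 and Id2 rose in DN cells by 4.41 ± 0.49 (adjusted p = 0.00052) and 4.38 ± 0.97 (adjusted p = 0.0435). By a probe other than the brightest, Bcl11a (4.11, adjusted p = 0.0492) and Foxo1 (3.47, adjusted p = 0.0134) also passed in DN cells and Id2 in thymocytes (2.83, adjusted p = 0.0269). Tcf3, which encodes the E proteins that act upstream of Ebf1, was at -0.50, 1.44 and 0.25 in thymocytes, DN and DN1 cells without a call. Irf4, Irf8, Id2 and Bcl11a are also used by dendritic or innate lymphoid cells.

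None of the paralogs of the 6 genes passed. Of 16 paralogs (Pax1 to Pax9 without Pax5, Ebf2 to Ebf4, Spi1, Spic, Pou2f1, Pou2f3 and Bach1), 16 were tested in thymocytes, 15 in DN cells and 16 in DN1 cells, and 0 passed in any of them (1, 5 and 1 at an unadjusted p under 0.05, where 14.6%, 28.8% and 5.22% of all tested probes were). Of the 5 in DN cells, 4 were lower and 1 was higher. The median differences of the paralogs were -0.09, -0.85 and 0.05 in thymocytes, DN and DN1 cells. Spi1, which encodes PU.1, was at 2.32 ± 0.51 in thymocytes (adjusted p = 0.0828) and 2.53 ± 0.54 in DN cells (adjusted p = 0.0635), with all treated arrays above all isotype arrays in both.

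Genes of plasma cells, the stage that Bach2 and Pax5 oppose, were counted as the opposite pole. Of 6 genes, 3 rose in thymocytes (Mzb1, Sdc1 and Prdm1), 3 in DN cells (Mzb1, Jchain and Sdc1) and 0 in DN1 cells (0 also at an unadjusted p under 0.05). Passing shares among all tested probes were 1.16%, 3.72% and 0.109%. Mzb1, a chaperone in immunoglobulin assembly also abundant in plasmacytoid dendritic cells, rose by 3.27 ± 0.49 in thymocytes (adjusted p = 0.0094) and 5.86 ± 0.53 in DN cells (adjusted p = 0.000157). Prdm1 (Blimp-1), which represses Pax5 in plasma cells, rose in thymocytes by 5.19 ± 1.07 (adjusted p = 0.042). Xbp1 did not pass, at -0.54, 0.59 and -0.20.

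Markers of other cells that use Spib, Pou2f2 or Bach2 also differed between the groups. The mean level of 11 plasmacytoid dendritic cell markers (Siglech, Bst2, Tcf4, Ccr9 and others) was 2.10 to 2.50 in anti-DLL4 against 0.38 to 0.68 in isotype thymocytes, and 0.65 to 1.41 against -0.92 to 0.32 in DN cells. In DN1 cells it ran the other way, at 0.55 to 0.72 with anti-DLL4 and 1.87 to 1.92 with isotype. At least 10 of the 11 were well above background on every array. Tcf4 is also among the B-lineage and lymphoid factors counted above, so this mean is not specific to plasmacytoid dendritic cells. The mean of 8 thymic epithelial markers overlapped between the antibodies in all 3 populations (-1.41 to -0.53 against -1.57 to -0.77 in thymocytes). The mean of 8 conventional dendritic cell markers was -0.12 to 0.52 against -1.71 to -0.28 in thymocytes, -0.78 to 0.01 against -3.20 to -2.38 in DN cells, and overlapped in DN1 cells. On the isotype DN arrays 6 to 7 of these 8 were well above background, and on all other arrays 8, so the DN gap has no exact size. The part of these cells in the levels of the 6 genes was not tested.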

How the data were processed

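RNA had been amplified in 2 rounds and labelled with Cy3, per the labels' protocols. The deposited values are a processed intensity per spot, with the background taken off inside every array and no scaling across arrays, from Agilent Feature Extraction 9.5.3.1 per the file headers (9.5 per the submitters' processing notes). Deposited flags of 0 or 1 say whether a spot was above background, saturated or an outlier, and the deposited mean and background intensity served the normexp alternative.

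The deposited series table holds a ratio per probe and array. Its scale, centring and direction are not stated. Set against these scanner values its log2 differed by a median of -0.014 to 0.003 per array, with about 70% of values within 0.05, so it runs in the direction of intensity. Its column medians were 0.639 to 1.423, and what the authors divided by is not stated in the sources used here. The values used here are log2 of the processed intensity less its 75th percentile on that array (43537 spots without controls), averaged per probe.

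A single linear model with 6 group means was fitted to all probes with limma 3.58.1 (lmFit and eBayes) in R 4.3.3, with the data.table package, version 1.17.8. A probe was tested if at least 2 of the arrays compared had it well above background, and p-values are two-sided. The median difference of all tested probes, taken off every printed difference, was -0.42 in thymocytes, -0.65 in DN and -0.03 in DN1 cells, -0.37 for the effect in DN cells less that in thymocytes, 0.38 for DN1 less thymocytes and 0.61 for DN1 less DN, and 0.35 and -0.66 in the isotype and 0.07 and 0.00 in the anti-DLL4 population comparisons. Calls come from the values before that step. Where the arrays of 2 groups are said not to overlap, the share of all probes that separated likewise was not counted. For the floor ratio of Pax5, the mean of the anti-DLL4 group was set against a floor averaged over the isotype arrays. The floor of an array was the lowest signal well above background of any probe, or the Pax5 probe's signal if higher. It is not a detection limit of the Pax5 probe. The code was tested on simulated data. All member probes were named, and the 5 nearest genes and the genes of 4 lists called in an antibody comparison, with 1 gene not reported here. List genes were counted by their brightest probe, and calls by other probes of the lists were looked up after seeing the data. Members, lists, markers and tests were chosen with earlier results of these data known. Deviations from the group mean were correlated between same-numbered arrays of the 2 antibodies. The values were -0.22, 0.03 and -0.14 in thymocytes, -0.15, -0.01 and -0.02 in DN and 0.27 and -0.02 in DN1 cells. They cannot decide whether arrays were paired, because deviations within such small groups are tied by the mean. In the 2 isotype DN1 arrays they mirror each other. The same-numbered thymocyte arrays also shared slides. Numbers were not taken as pairs, since no source ties arrays to animals. Alternatives changed the scaling, background correction, filter, probe summary, slide, replicate block, arrays and source of values. The number of arrays limits the precision.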

Additional observations from a re-analysis of the deposited data

How the results depend on the processing

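The count of called probes of the 6 genes was 4 in thymocytes, 5 in DN cells, and 1 in each isotype comparison of populations. In thymocytes it was 2 with slide as a fixed block, with the replicate block, with only the arrays compared in the fit, and with the probes of a gene averaged (then out of 6 genes). In DN cells it was 3 with averaged probes, 3 with slide as a fixed block and 1 without isotype DN replicates 1 and 2. For isotype DN cells against thymocytes it was 0 with averaged probes, with slide as a fixed block and without those 2 arrays. For isotype DN1 against DN cells it was 4 with quantile normalization and 0 with normexp background, averaged probes, only the arrays compared or without those 2 arrays. Leaving out 1 array at a time gave 2 to 5 in thymocytes, 5 to 6 in DN cells, 0 to 1 in DN1 cells, 1 to 2 for isotype DN against thymocytes, 0 to 3 for isotype DN1 against DN cells and 0 to 1 for the DN1 minus DN difference. The single calls in DN1 cells (Ebf1 A_52_P531838, at -4.92, adjusted p = 0.0469) and in the difference (Pax5) came without anti-DLL4 thymocyte replicate 3 and without isotype DN replicate 3. The cause of these changes was not tested, beyond the fewer arrays or probes that some settings hold. With the replicate number as a block the call of Pou2af1 in DN cells was also lost (4.61, adjusted p = 0.0588). Of the results of single probes that were called, 37 lost the call under an alternative, 321 did not and kept direction, and none reversed. A further 5 were untested within-slide values of Pax5 and Spib in thymocytes that moved by more than 1 SD. The 321 also hold within-slide values, which have no p-value and so kept the direction only. The block could be fitted for the antibody comparisons only. Over all probes the calls were 404, 1273 and 40 in thymocytes, DN and DN1 cells, and 68, 404 and 0 with the replicate block. They were 135, 512 and 0 with only the arrays compared, 262, 827 and 25 with averaged probes, and 185 in DN cells without isotype DN replicates 1 and 2. Over the fits that left out 1 array they were 165 to 521, 509 to 7983 and 0 to 64, the 7983 without isotype DN replicate 3.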
